A study of Mus musculus with 8 samples.

Results

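Described here are 10 genes that control entry from G1 into S phase of the cell cycle: the RB family (Rb1, Rbl1 and Rbl2), 4 E2F factors (E2f1, E2f2, E2f3 and E2f4), the G1 cyclins Ccnd1 and Ccne1, and the inhibitor Cdkn1b. They were taken by name from a table of 17597 genes, and all 10 were found. The set was built around Rb1, which was selected on its fold change between treated and untreated cells in the authors' own comparison. Fold changes of that comparison were not used, so none is reported and the set says nothing here about the response to METTL3 loss.

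RNA was sequenced from METTL3_FKBP12F36V mouse embryonic stem cells of Cast x 129S background, in which METTL3, the catalytic subunit of the m6A writer, carries a tag that directs it to destruction when the small molecule dTAG-13 is given. The 8 libraries formed 2 groups of 4, one treated with dTAG-13 for 26 hours and one left untreated, each with 2 libraries from clone C3 and 2 from clone H5. All of them carried a TetOn promoter in place of the endogenous Xist promoter (on the 129S allele per the labels, while the study describes these clones in a line with inducible Xist on the Cast X chromosome, so the allele is uncertain) and received no doxycycline, and all were grown on inactivated fibroblast feeders with LIF and serum. The groups rest on a pair of clones of a single engineered line, and the labels give total RNA as the molecule but describe extraction from chromatin, where the study's methods describe total RNA.

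The value analysed for each gene was the authors' mean over all 8 libraries of its size-factor-scaled read number, referred to as its mean count. The table gives no value per library and none per group. Spread between replicates and depth of each library could therefore not be given. The authors' difference between the groups was not used, so the values below are descriptions with no test. An order of 2 genes is the order of their means, and no neighbours in it could be compared with their spread.

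Passage through G1 is controlled by cyclin-dependent kinases. Unphosphorylated RB proteins bind E2F factors and hold back the genes needed for DNA replication. Cyclin D and cyclin E kinases phosphorylate RB proteins and release E2F, while inhibitors such as p27, the product of Cdkn1b, restrain the kinases. Mouse embryonic stem cells are known for a short G1 phase with high cyclin E activity and RB proteins that are mostly phosphorylated.

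The reads behind these values ran from a mean count of 204 to one of 5038. All 10 genes were above a mean count of 10, the lower bound used here for an expressed gene. Together they held 0.0858% of the counts of all genes. Since a long transcript collects more reads than a short one at the same number of molecules, genes were compared with each other only as mean count per kb of annotated exon, called the level. The level spanned 52.6-fold between the highest and the lowest of the 10 genes.

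The RB family took 3 of the 4 lowest places in the order, with E2f2 between Rbl1 and Rbl2. Rb1, which encodes the retinoblastoma protein, had a level of 36.0 per kb and was the lowest of the 10 genes. It was followed by Rbl2, which encodes p130, at 36.6 per kb. Rbl1, which encodes p107, had a level of 48.8 per kb. In the ranking of 17373 genes of known exon length Rb1 stood at the 48.6th percentile, Rbl2 at the 48.8th and Rbl1 at the 53.0th. All 3 were under 81.2 per kb, the median over the 13462 genes whose mean count reached 10, called the median of expressed genes. Rb1 made up 29.6% of the summed level of the family, Rbl2 30.2% and Rbl1 40.2%, so no member held most of the RNA of the family. Rb1 and Rbl2 differed by a factor of 1.02, and Rbl1 exceeded Rb1 by a factor of 1.36.

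Rb1 lies on chromosome 14 from 73183673 to 73325822 on the minus strand (GRCm38, the build of mm10). Its annotated exons share bases with exons of 2 genes on the opposite strand, 8.11% with Rcbtb2 and 6.78% with Lpar6. The mean count was 216 for Rb1, 272 for Rcbtb2 and 97.9 for Lpar6. For Rbl2 (chromosome 8, 91070057 to 91123844, plus strand) the exon bases shared on the opposite strand made up 9.17% with Aktip and 11.8% with the noncoding gene Gm45464. The mean count was 277 for Rbl2 and 873 for Aktip. Rbl1 (chromosome 2, 157145893 to 157204534, minus strand), the 4 E2F genes, Ccne1 and Cdkn1b shared no exon base with another gene. Whether the counting used strand is uncertain, so some of the reads given to Rb1 and Rbl2 may belong to these neighbours, and how many was not tested.

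The E2F factors differed widely among themselves. E2f4, a factor that mainly represses together with p107 and p130, had the highest level of the 4 at 672 per kb, from a mean count of 1647. E2f3, an activator, had a level of 152 per kb and a mean count of 823. E2f1, the activator best known as the partner of the retinoblastoma protein, was at 103 per kb with a mean count of 324. E2f2, the remaining activator, was at 41.8 per kb, under the median of 81.2. The level of E2f4 was 4.43 times that of E2f3, 6.53 times that of E2f1 and 16.1 times that of E2f2. It was 2.27 times the summed level of all 3 activators. Per kb of coding length these ratios were smaller, 2.23 to E2f3, 4.77 to E2f1, 8.73 to E2f2 and 1.29 to the sum. E2f4 lay at the 92.6th percentile of genes, E2f3 at the 72.4th, E2f1 at the 65.4th and E2f2 at the 50.6th. E2f4 was counted from 2452 exon bases and E2f3 from 5429.

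Cyclin E1 RNA was the most abundant of the set. Ccne1, whose product activates CDK2 at the G1/S transition, had a level of 1893 per kb at the 97.9th percentile of genes. Ccnd1, whose product activates CDK4 and CDK6 earlier in G1, had a level of 723 per kb at the 93.1st percentile. The level of Ccne1 was 2.62 times that of Ccnd1 and 52.6 times that of Rb1. Per kb of coding length the first ratio was 1.07, while the ratio to Rb1 was again 52.6. The other lengths tried gave 2.77 and 2.69 for the first ratio, so the gap between the cyclins depended on the use of coding length. That length leaves out the UTRs, whose reads remain in the counts. Of the exon bases of Ccnd1, 23.4% are shared with a gene on the opposite strand annotated as LTO1, and the reads from it were not tested. Cdkn1b, which encodes the inhibitor p27, had a mean count of 280 and a level of 61.6 per kb at the 56.6th percentile. Ccne1 exceeded it by a factor of 30.7 and Ccnd1 by a factor of 11.8. Per kb of coding length these factors were 8.68 and 8.12.

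**Figure D1:**
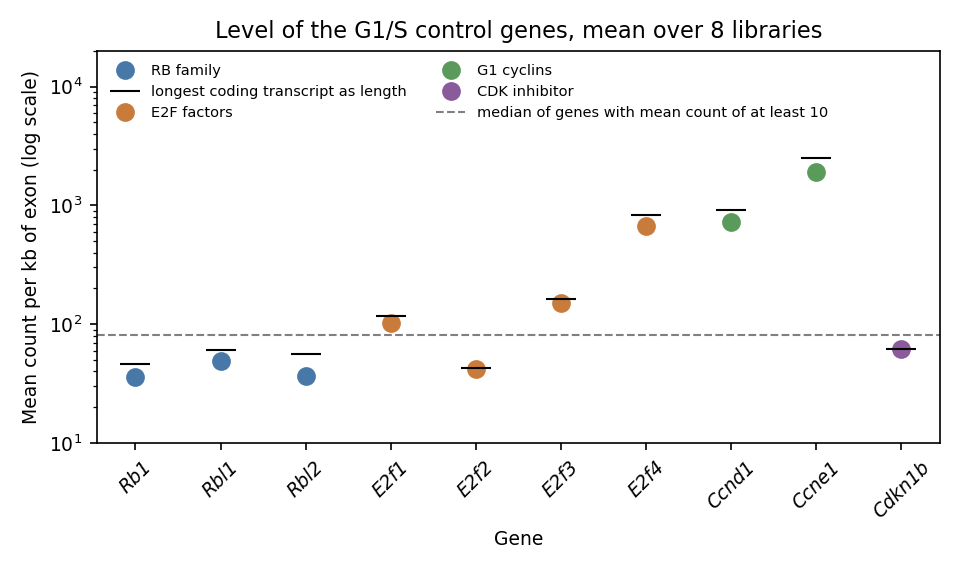
Level of each of the 10 genes as mean count per kb of annotated exon on a log axis; each point is the authors' mean over all 8 libraries, coloured by role, and has no error bar because no value per library is given. Short black lines show the level when the longest protein-coding transcript is used as the length, and the dashed line is the median of expressed genes, 81.2 per kb. E2f4, Ccnd1 and Ccne1 lie at 672 or above, while the 3 RB family genes, E2f2 and Cdkn1b lie under the dashed line.

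Of the 10 genes, 5 were above the median of expressed genes and 5 were below it, and the median of the 10 was 82.2 per kb. Levels of lists of genes of the same pathway, which include the 10 genes themselves, were then read by role. Among the 10 E2F factors and their DP partners, 8 were above that median, and 7 with each of the other 3 lengths tried. Tfdp1, the DP partner of E2F factors, was highest at 998 per kb, and E2f7, an atypical repressor, was lowest at 22.2 per kb. Of 6 cyclins of G1 and S phase, 5 were above it. The exception was Ccnd2 at 14.8 per kb, in contrast to Ccnd1. The list of cyclin-dependent kinases, which includes the phosphatase Cdc25a, ran from Cdk6 at 28.0 per kb to Cdk4 at 2018 per kb, and both are kinase partners of D-type cyclins.

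Of the 7 inhibitors of these kinases, 1 was above the median of 81.2 per kb, Cdkn2d at 112 per kb, and the median of the list was 61.6 per kb, the value of Cdkn1b itself. Per kb of coding length 3 of the 7 were above the median of expressed genes, Cdkn1b, Cdkn1a and Cdkn2d. Cdkn2c was lowest at 3.11 per kb, with a mean count of 8.34. All 6 subunits on the MuvB and DREAM list, whose MuvB core joins p107, p130 and E2F4 or the activator MYBL2, were above the median, from Lin9 at 85.7 to Mybl2 at 1576 per kb, except that Lin37 was below it per kb of coding length. The 6 genes for turnover of G1/S regulators ran from Fbxw7, which encodes the subunit that recognises cyclin E for degradation, at 134 per kb to Ddb1 at 2696 per kb. All 16 replication genes known as E2F targets were above the median of 81.2, from Tk1 at 187 to Pcna at 2241 per kb. The median of these 16 was 869 per kb, against 36.6 per kb for the RB family. These lists were picked by textbook role, and no list was compared with other genes by a test.

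The cell type of the labels was checked with marker genes. All 10 stem cell markers were above the median of 81.2 per kb, led by Dppa5a at 16142, Pou5f1 at 5309 and Zfp42 at 4840 per kb. Of 10 fibroblast markers, 3 were above it, Sparc at 806, Fn1 at 423 and S100a4 at 85.0 per kb. Per kb of the longest protein-coding transcript or of its coding length only 2 were above, Sparc and Fn1. Dcn, Col3a1, Lum and Postn had mean counts under 10, at 7.50, 8.38, 1.45 and 0.768. The summed level of the stem cell markers was 28.1 times that of the fibroblast markers. A few genes carried both sums: Dppa5a held 16142 of 38131 per kb, and Sparc and Fn1 held most of 1359 per kb. The part of feeder RNA in the levels of the 10 genes was not tested. Mettl3, the gene that carries the tag, had a mean count of 684 and was not compared between the groups.

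**Figure D2:**
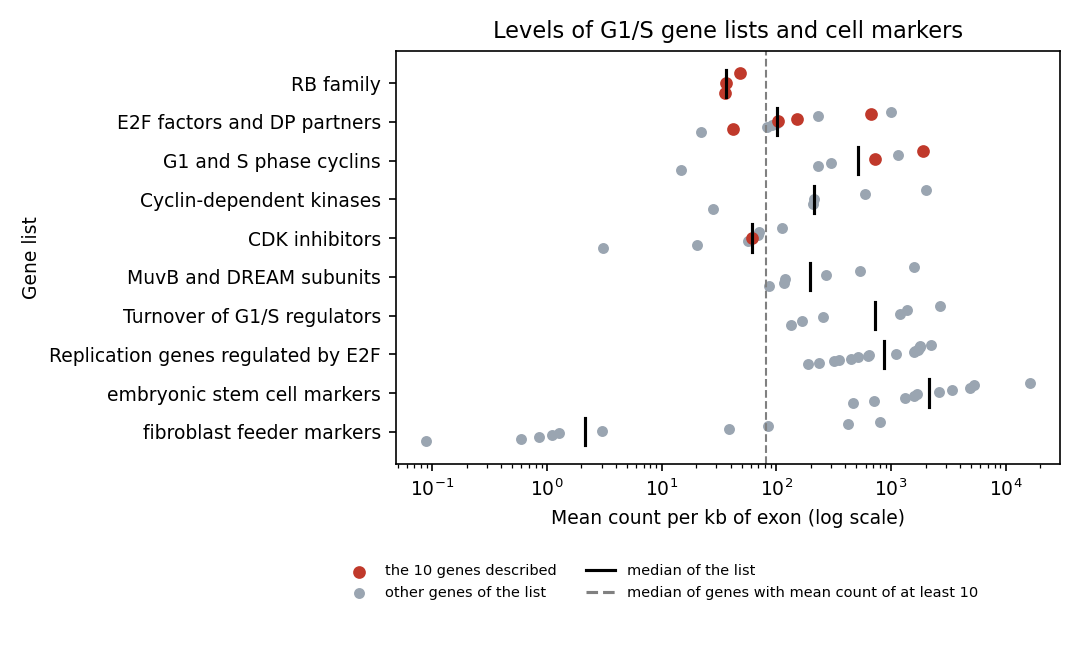
Level of every gene in 8 lists of the G1/S pathway and 2 marker lists, as mean count per kb of annotated exon on a log axis; each point is one gene, red for the 10 genes described, black bars are list medians and the dashed line is the median of expressed genes, 81.2 per kb. All 16 replication genes and all 6 MuvB and DREAM subunits lie right of the dashed line, while all 3 RB family genes and 6 of 7 inhibitors lie left of it.

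METTL3 methylates adenosine within a short consensus, of which GGACT, written in DNA letters, is the best known form, and m6A is known to be frequent in long exons and around stop codons. The consensus was therefore searched on the sense strand of the longest protein-coding transcript of each gene, and distances are from the first base of the stop codon to the A of the match. A match is a description of the sequence and not evidence of methylation. The matches below are those nearest the stop codon of Rb1, of the 3 RB or E2F relatives with matches within 100 bases of it, and of Cdkn1b. They are shown with the consensus in capitals. Positions are in GRCm38, the Rb1 and E2f3 sequences are on the minus strand and the others on the plus strand, and the E2f3 matches are coding while the others are in the 3′ UTR.
Rb1, chr14:73196669-73196694: tctacacattGGACTattttaatatt
Rbl2, chr8:91122482-91122507: ctggttagcaGGACTtaatgcatgca
Rbl2, chr8:91122498-91122523: aatgcatgcaGGACTacggaaccttg
E2f3, chr13:29909906-29909931: ctctggtggaGGACTtcatgtgtagt
E2f3, chr13:29909990-29910015: tgctccaagaGGACTacctgctgagc
E2f4, chr8:105304739-105304764: agccaactagGGACTgccccccaccc
Cdkn1b, chr6:134922147-134922172: gcagaccccaGGACTgctggcagatt

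Every one of the 10 transcripts held the consensus, as did 92.7% of 13031 expressed protein-coding genes. Rb1 had 4 matches in 4656 bases, 3 of them coding, and the nearest to its stop codon lay 531 bases downstream. Rbl1 and Rbl2 had 7 matches each. In Rbl2, matches stood 50 and 66 bases after the first base of the stop codon, the pair of overlapping windows above, while the nearest one in Rbl1 was 461 bases after it. E2f3 had 6 matches, one of them 14 bases before the stop codon. E2f2 had 4, all in the 3′ UTR, and E2f1 had 2, both coding. E2f4, Ccnd1, Ccne1 and Cdkn1b had 3 each.

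A match within 200 bases of the stop codon was present in 5 of the 10 genes (Rbl2, E2f3, E2f4, Ccnd1 and Cdkn1b). The share among the 13016 expressed protein-coding genes with an annotated stop codon was 40.3%. Matches per kb ran from 0.659 in Cdkn1b to 1.51 in E2f4, with a median of 1.02 against 1.05 over the 13031 expressed protein-coding genes. Of the 10 genes, 5 were above that median. Rb1 had 0.859 matches per kb, at the 37.9th percentile. In the transcript with the longest coding sequence the median of the 10 was instead the higher one, 1.14 against 1.05, with 6 of the 10 above it.

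**Figure D3:**
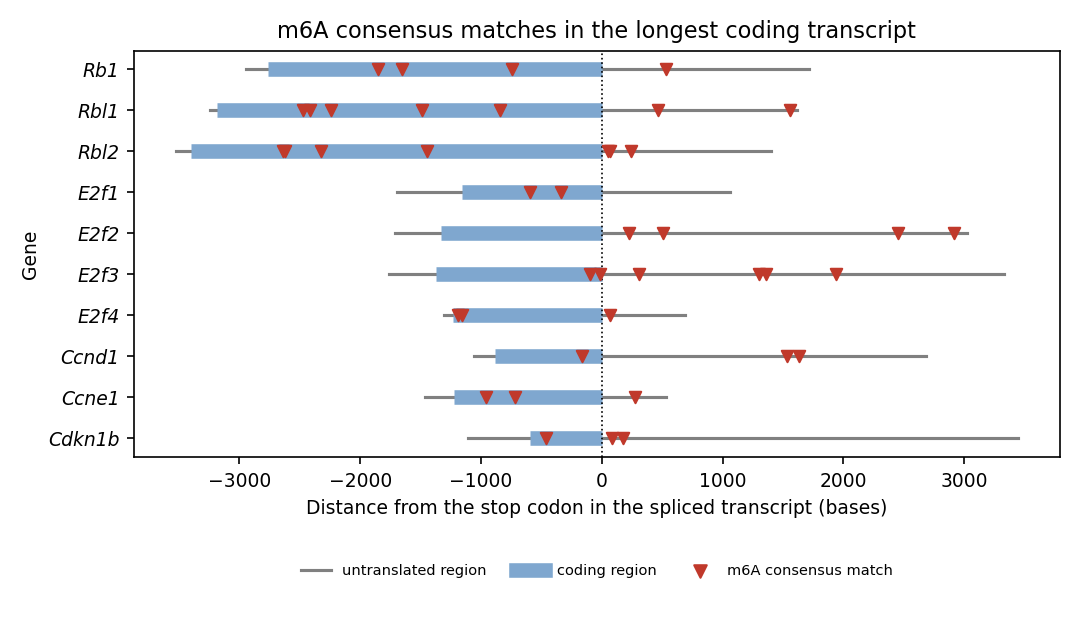
Positions of the m6A consensus (triangles) in the longest protein-coding transcript of each of the 10 genes, drawn to scale in bases from the stop codon, with the coding region as a blue bar and untranslated regions as grey lines. Rbl2, E2f3, E2f4, Ccnd1 and Cdkn1b have a match within 200 bases of the stop codon, and the nearest match of Rb1 lies 531 bases downstream.

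Exon structure differed widely among the 10 genes. Rb1 has 27 exons in this transcript, or 5.80 per kb, at the 84.7th percentile of expressed protein-coding genes, whose median was 3.24 per kb. Ccne1 was denser still, at 6.0 per kb. Cdkn1b has 2 exons, 0.439 per kb, at the 2.38th percentile, and has no internal exon. E2f2, E2f3 and Ccnd1 had 1.48, 1.37 and 1.34 exons per kb, and in each of them the 3′ UTR is most of the transcript. The longest internal exon of Rb1 was 197 bases, near the median of 218 bases over 12066 genes. The activators E2f1, E2f2 and E2f3 each had 7 exons and a longest internal exon of 220 bases.

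E2F factors bind the promoters of cell cycle genes, those of the E2F and RB families included. Promoter sequences of RefSeq (GRCm38.p6), from 250 bases before to 50 bases after the start site, were matched by symbol for 7 of the 10 genes, in 9 promoters. Those of Rb1, E2f4 and Ccnd1 were not analysed here. The E2F site was searched on both strands as TTTCCCGC, TTTGCCGC, TTTGGCGC and TTTCGCGC, and TTTCGCGC can overlap its own reverse complement. A match was found for 3 genes, and each is shown on the strand of its gene with the site in capitals, because these are the members that carry the letters.
Rbl1, chr2:157204536-157204561: gaaggcgatTTTCGCGCgctttgtcg
E2f2, chr4:136172304-136172323: ggcatatagTTTGGCGCtaa
E2f3, chr13:29986058-29986083: gaaaagccgGCGGGAAAtctgagttt

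In Rbl1 the match began 18 bases before the start site. In E2f3 it began 11 bases before the start site of one of its 2 promoters, with the letters on the opposite strand. In E2f2 it began 39 bases after the start site of one of its 2 promoters. That E2f2 window ends at 136172323 on chromosome 4, before the 5′ end of the annotated gene at 136172394. The share of all 32851 promoters with a match was 2.26%, and among 12913 genes of the table with a promoter 4.08% had one in any of their promoters. TTTCCCGC was in 1.07% of promoters, TTTGCCGC in 0.441%, TTTGGCGC in 0.514% and TTTCGCGC in 0.323%. In the promoters of Rbl2, E2f1, Ccne1 and Cdkn1b these letters were not in the window. The E2f1 window (chromosome 2, 154569377 to 154569676) lies inside the annotated gene, whose 5′ end is at 154569892. Sequence before that end was not searched.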

How the data were processed

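Total RNA libraries of 8 samples in 2 groups were sequenced as stranded read pairs. The authors removed ribosomal reads with bowtie2, aligned the rest to mm10 with strain variants masked using STAR, kept unique alignments, removed duplicates with Picard and ran TEtranscripts with default settings. One table was deposited. Its signal column, the mean over all libraries of counts divided by size factors, was used as the authors' mean, with no SD or n. The other 5 columns hold the authors' comparison of the groups (fold change, its standard error, statistic, p and adjusted p) and were not used, so no test was run. Depth per library is unknown.

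Symbols were matched to GENCODE vM21 (GRCm38): 16660 directly and 713 through an older symbol, 98.7% of genes. Level is the mean count divided by the union of annotated exons in kb. Computations used Python 3.11.15 and numpy 2.4.6. The functions that find motif matches and give the length of joined exons were tested on simulated data. Named genes are the 10 members, the highest and lowest gene of each pathway list, and of each marker list the 3 highest and those with a mean count under 10. Members and lists were chosen with earlier results of these data known. A planned comparison of protein sequences was not run. Promoter sequences are credited to RefSeq. Alternatives were other lengths, gene backgrounds, filters, transcripts and a wider consensus.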

Additional observations from a re-analysis of the deposited data

How the results depend on the processing

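No paired analysis was possible because the table holds a single mean over all libraries, and for the same reason no replicate could be left out. Values without an error were taken as alike within a factor of 1.5. With the coding length of the longest protein-coding transcript, which leaves out the UTRs, the median level of the 10 genes was 377 per kb and all 10 levels were higher by more than that factor, as was the median of expressed genes, at 269 per kb, and 6 of the 10 genes were above that median, with Cdkn1b added. With the longest protein-coding transcript 1 level, that of Rbl2, was higher by more than that factor, at 56.2 per kb, and 4 rather than 5 of the 10 genes were above the median of expressed genes, without E2f1. An effective length moved no level beyond that factor. Ccne1, Ccnd1, E2f4 and E2f3 held the first 4 places in this order under each length. Rb1 was lowest except with the longest transcript, where E2f2 was lowest. Rb1 made up from 28.5% to 31.2% of the RB family under the lengths tried. The wider consensus DRACH, where D is A, G or T, R is A or G and H is A, C or T, had a median of 17.7 matches per kb in the 10 genes against 20.0 over expressed protein-coding genes, and 2 of the 10 were above that median. The background genes, the filter on low mean counts and the transcript chosen for the consensus moved no other median beyond the same factor.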

Other observations

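Promoters of the replication genes known as E2F targets were searched with the same E2F letters. Of 14 such genes with a promoter, 8 had a match: Mcm3, Mcm5, Mcm6, Mcm7, Cdc6, Cdt1, Orc1 and Pola1. The share among all genes of the table with a promoter was 4.08%. The list was chosen because its genes are known E2F targets, so the count is a description of these promoters. The other 6, Mcm2, Pcna, Rrm1, Rrm2, Tyms and Tk1, had none of these letters in the window, and Pcna had the highest level of the list at 2241 per kb. These genes were named after their values were seen.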
